A study of Mus musculus with 2 samples.

Results

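The cytotoxic granule genes examined here are Gzma, Gzmb, Gzmk, Gzmm, Prf1, Nkg7, Ctsw, Ctsc, Srgn and Serpinb9. They were taken as every probe set that the platform annotation gives to 1 of these symbols alone, which yielded 14 probe sets for the 10 genes, out of 34945 such probe sets for 18193 genes. Gene expression had been measured in a preparation of naive gamma/delta T cells, labelled CD44-, and in a preparation of naive CD8+ alpha/beta T cells. Both cell types were taken from lymph nodes of C57BL/6 mice and enriched by removing other cells, with 1 Affymetrix MOE430 2.0 array for each. No treatment, genetic modification, age or number of mice is given in the sources used here. The series title names the kinase Blk and how IL-17 producers arise among gamma/delta T cells, and the comparison asked how the transcripts of these 2 naive T cell lineages differ.

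Cytotoxic lymphocytes kill target cells by releasing granules that hold granzymes, which are serine proteases, and perforin, which lets the granzymes into the target cell. Inside the granule these proteins are held on the proteoglycan serglycin, and cathepsin C converts granzyme precursors to active enzymes. Naive CD8 T cells are known for holding little granzyme and perforin until they are activated, while cathepsin W and Nkg7 are typical of CD8 T cells and natural killer (NK) cells.

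With 1 array for each cell type, no test, standard error or replicate check exists, and each ratio compares these 2 preparations. Values are MAS5 signals in scaled units, with array medians of 243.3 for gamma/delta and 242.1 for CD8+ alpha/beta T cells. The higher of these medians served as a floor. Weaker signals were raised to it, and the log2 fold change of gamma/delta over CD8+ alpha/beta T cells was computed. Where 1 of the signals was below the floor the value is a bound, where both were there is no ratio, and a difference of 2-fold or more was called. The spread available was the disagreement among probe sets for the same gene, a pooled SD of 0.50 on the log2 scale over 3317 genes. The labels were checked with T cell receptor and coreceptor genes and with Cd44. The gamma segment Trgv4 had signals of 12522 in gamma/delta and 170.4 in CD8+ alpha/beta T cells, and the coreceptor chain Cd8a had 731.1 and 8852. All 4 gamma/delta markers measured (Trgv4, Trgv1, Cd163l1 and Sox13) were called higher in gamma/delta T cells, and Cd8a and Cd8b1 were called lower. Of 5 genes that all T cells express, the receptor chain Cd3g was called, with a log2 fold change of 1.21, and the list's median was 0.56. For Cd44, whose protein the gamma/delta label gives as absent, 3 of 4 probe sets were above the floor in gamma/delta T cells. Their signals were 524.9, 475.9 and 308.4 in gamma/delta and 421.0, 242.6 and 556.0 in CD8+ alpha/beta T cells, with log2 fold changes of 0.32, 0.97 (a bound) and -0.85. Cd44 probe sets were thus above the floor in the preparation labelled CD44-, and they went opposite ways.

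Gzma and Nkg7 stood out among the granule genes, and both were higher in gamma/delta T cells. Gzma encodes a granzyme that cuts after basic residues, and Nkg7 encodes a granule membrane protein that promotes granule release. No granule gene was called lower in gamma/delta T cells. Of the 10 genes, 9 had a ratio and 2 of these (22.2%) were called higher, against 5.82% of the 11914 genes with a ratio across the array. For calls lower in gamma/delta T cells the count was 0 of 9, against 3.93% of all genes. Over probe sets, 2 of 12 with a ratio were called higher, against 5.2% of all, and 0 of 12 lower, against 4.37%. Gzma and Gzmm had a ratio through 1 array only, so a gene expressed in 1 of the cell types entered these counts more easily than one expressed in neither.

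**Figure D1:**
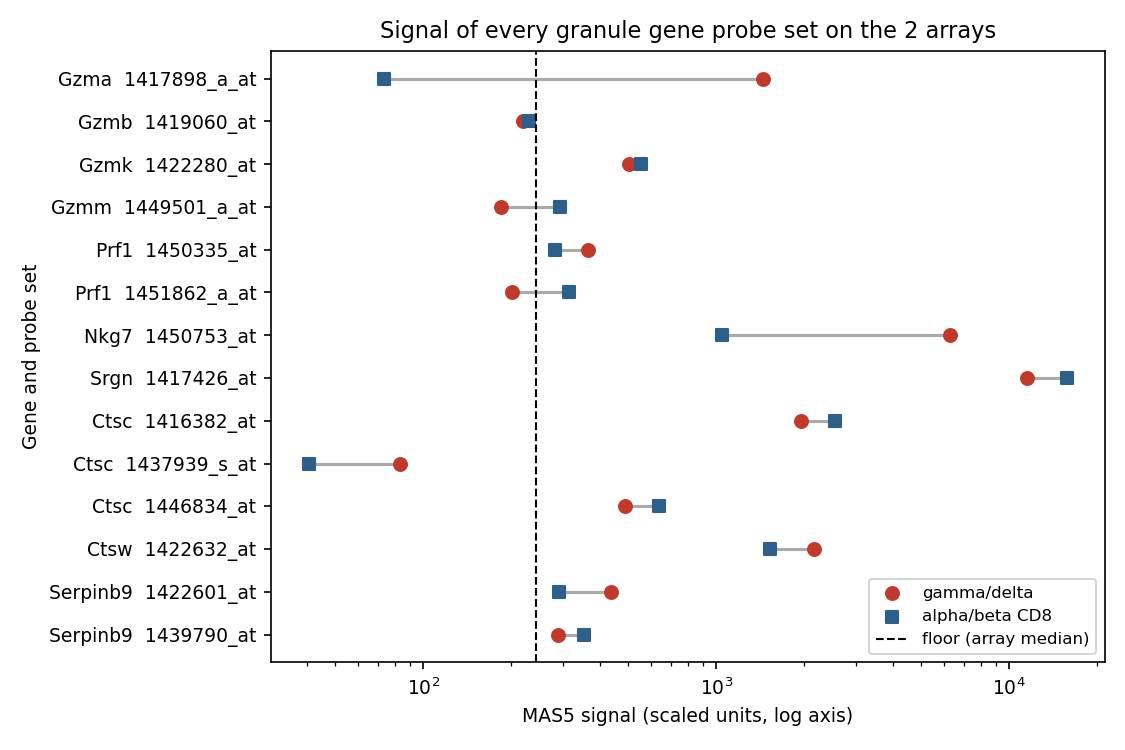
MAS5 signal (horizontal log axis, scaled units) of each of the 14 granule gene probe sets in gamma/delta T cells (red circles) and CD8+ alpha/beta T cells (blue squares), 1 array each, with the floor of 243.3 as a dashed line. Gzma and Nkg7 have the widest gaps above the floor, with signals of 1442 against 73.4 and 6304 against 1045, and the signals of Gzmb and Gzmk nearly coincide.

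Gzma, read by probe set 1417898_a_at, had a signal of 1442 in gamma/delta T cells and 73.4 in CD8+ alpha/beta T cells. The CD8+ alpha/beta signal lay below the floor, so that Gzma was at least 5.93-fold higher in gamma/delta T cells (log2 fold change of at least 2.57). Nkg7, read by 1450753_at, had signals of 6304 in gamma/delta and 1045 in CD8+ alpha/beta T cells, both well above the floor, and was 6.04-fold higher in gamma/delta T cells (log2 fold change 2.59). With bounds taken at their value, Nkg7 ranked 34 and Gzma 36 from the highest among the 11914 genes. Each of these genes is read by 1 probe set, so neither ratio has a second reading on these arrays. In RNA from a cell preparation, a higher signal from more cells that carry a transcript and one from more transcript per cell cannot be told apart.

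None of the other granzymes among the 10 genes, Gzmb, Gzmk and Gzmm, was called. Gzmb, the granzyme that cuts after aspartate and triggers caspases, had signals of 218.5 in gamma/delta and 229.5 in CD8+ alpha/beta T cells, below the floor in both, and so has no ratio. Gzmk, a relative of granzyme A with similar cleavage preference, had 503.9 and 554.3, a log2 fold change of -0.14. Both signals of Gzmk were above the floor and lay close together. Gzmm, a granzyme that cuts after methionine and leucine, had 184.8 in gamma/delta T cells, below the floor, and 293.8 in CD8+ alpha/beta T cells, a bound of at least 1.21-fold lower in gamma/delta T cells. The log2 fold change of Gzmk was smaller than the spread between probe sets of one gene. For Gzmm the log2 fold change was -0.67 when the floor was lowered to the 30th percentile or removed, short of the call. That value uses a signal below the original floor, for which the spread was not computed.

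In the RefSeq gene table used here, Gzmk is the next protein-coding gene to Gzma on chromosome 13, and these neighbouring granzyme genes had log2 fold changes of at least 2.57 for Gzma and -0.14 for Gzmk. Gpx8, the neighbour of Gzma on the other side, had signals of 397.9 in gamma/delta and 547.4 in CD8+ alpha/beta T cells (log2 fold change -0.46). On chromosome 14 the coding genes next to Gzmb on one side are the granzyme genes Gzmc, Gzmf, Gzmn, Gzmg and Gzmd. All 5 lay below the floor on both arrays, with signals from 10.4 to 195.5 in gamma/delta T cells and from 4.71 to 199.6 in CD8+ alpha/beta T cells. These granzymes resemble each other closely and a probe for 1 may bind transcripts of another, so single values among them are uncertain.

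The stretches of 250 bases before the annotated start of Gzma and Nkg7 are shown because these 2 genes were called, and those of Gzmb and Gzmk because these granzymes were not. Sequences are from RefSeq (GRCm38.p6), written along each gene's own strand. Capitals mark matches, on either strand, to the Runx core (TGTGGT), the T-box core (GGTGTG), a STAT site (TTCNNNGAA), an AP-1 site (TGANTCA) or the Ets core (AGGAAG).
Gzma (chr13:113100982-113101231, minus strand): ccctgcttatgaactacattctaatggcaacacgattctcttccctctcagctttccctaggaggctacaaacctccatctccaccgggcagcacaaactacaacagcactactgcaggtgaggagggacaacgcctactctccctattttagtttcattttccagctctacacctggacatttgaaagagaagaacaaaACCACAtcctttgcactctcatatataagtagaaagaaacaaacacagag
Nkg7 (chr7:43436888-43437137, plus strand): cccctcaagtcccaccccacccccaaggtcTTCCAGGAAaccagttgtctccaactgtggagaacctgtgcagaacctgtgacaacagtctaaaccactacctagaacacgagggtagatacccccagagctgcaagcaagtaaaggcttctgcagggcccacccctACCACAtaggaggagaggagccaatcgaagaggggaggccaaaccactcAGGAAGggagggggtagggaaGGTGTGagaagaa
Gzmb (chr14:56262335-56262584, minus strand): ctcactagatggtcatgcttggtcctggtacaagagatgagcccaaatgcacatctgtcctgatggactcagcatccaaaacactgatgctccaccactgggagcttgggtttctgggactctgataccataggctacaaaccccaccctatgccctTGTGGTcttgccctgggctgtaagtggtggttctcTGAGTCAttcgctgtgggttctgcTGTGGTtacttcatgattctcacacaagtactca
Gzmk (chr13:113180966-113181215, minus strand): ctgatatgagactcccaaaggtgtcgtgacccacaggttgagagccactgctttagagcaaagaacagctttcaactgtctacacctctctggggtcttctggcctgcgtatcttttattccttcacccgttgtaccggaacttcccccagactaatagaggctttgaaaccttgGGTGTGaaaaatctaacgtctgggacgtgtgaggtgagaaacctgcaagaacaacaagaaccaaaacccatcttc
The Gzma window held a Runx core on the opposite strand, 50 to 45 bases before the start, and no other motif of the 5. The Nkg7 window held 4 matches, a STAT site, a Runx core on the opposite strand, an Ets core and a T-box core. The Gzmb window held 2 Runx cores and an AP-1 site, and the Gzmk window held a T-box core. The Runx core was thus present before both called genes and also before Gzmb, which was below the floor in both cell types. It was present before Gzmm, Prf1 and Srgn too, none of which was called. Over the members, 6 of 11 windows held a Runx core, against 14% of 32851 windows of all genes. Some members gave more than 1 window because they have more than 1 annotated start, and Ctsw had no window. A T-box core was in 5 of 11 windows, against 16.3% of all, and an Ets core in 4 of 11, against 29.5%. A STAT site was in 3 of 11, against 7.02%, and an AP-1 site in 1 of 11, against 6.75%. A match describes the letters of the window and is not evidence of binding.

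Perforin signals lay near the floor in both preparations, and its probe sets went opposite ways. For Prf1, probe set 1450335_at had signals of 364.7 in gamma/delta and 282.3 in CD8+ alpha/beta T cells, a log2 fold change of 0.37. Probe set 1451862_a_at had 200.2 in gamma/delta T cells, below the floor, and 314.1 in CD8+ alpha/beta T cells, a bound of -0.37. No direction can be given for Prf1, and none of its signals was far above the floor.

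Srgn, which encodes serglycin, was far above the floor in both cell types, with a signal of 11517 in gamma/delta and 15740.2 in CD8+ alpha/beta T cells (log2 fold change -0.45). Srgn is also expressed by myeloid cells, mast cells and platelets. Its ratio was smaller than the spread between probe sets of one gene and below the call.

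Neither of the granule cathepsins, Ctsc and Ctsw, was called. Ctsc, which encodes the protease that activates granzymes, had signals of 1950.5 in gamma/delta and 2542 in CD8+ alpha/beta T cells with probe set 1416382_at, and 489.9 and 637.0 with 1446834_at. These probe sets gave the same log2 fold change of -0.38, and the third, 1437939_s_at, lay below the floor in both, at 83.1 and 40.7. Ctsw, a cysteine protease of cytotoxic lymphocytes, had 2151 in gamma/delta and 1521 in CD8+ alpha/beta T cells, a log2 fold change of 0.50. Ctsw was thus well above the floor in both cell types, with a ratio as large as the spread between probe sets and below the call.

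Serpinb9 encodes an intracellular serpin that inhibits granzyme B and protects the cells that carry it. Its probe set 1422601_at had signals of 436.6 in gamma/delta and 290.3 in CD8+ alpha/beta T cells (log2 fold change 0.59), and 1439790_at had 288.1 and 353.4 (log2 fold change -0.29). As for Prf1, the probe sets disagreed in sign and no direction can be given.

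**Figure D2:**
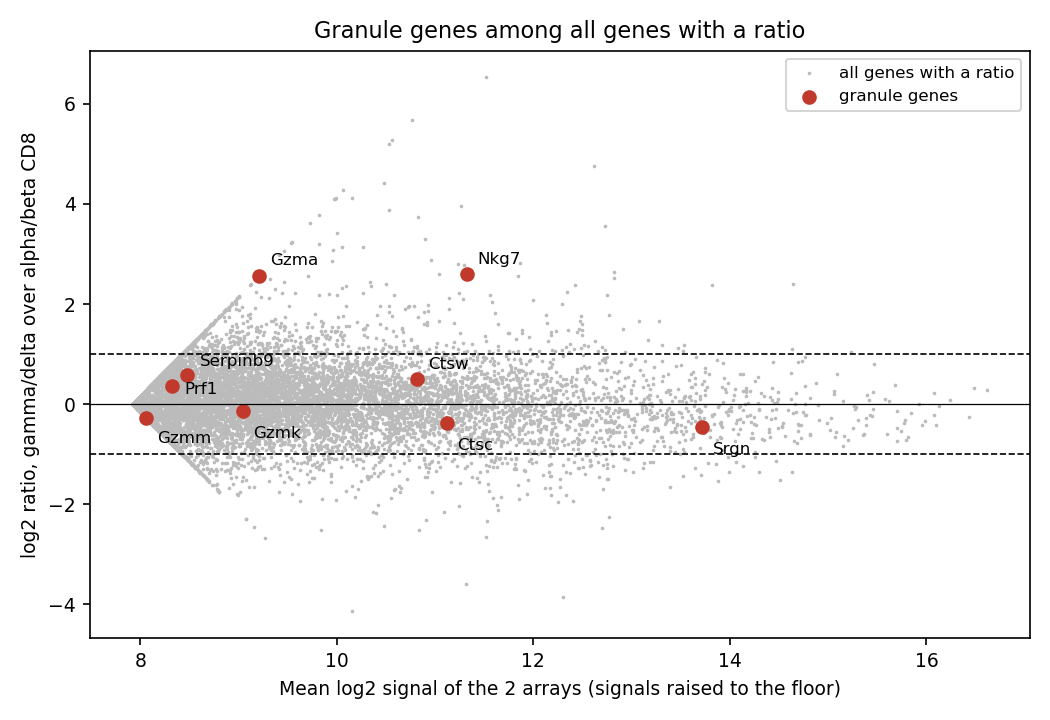
Each point is a gene with a ratio, placed by its mean log2 signal over the 2 arrays (horizontal) and its log2 fold change of gamma/delta to CD8+ alpha/beta (vertical), with the 9 granule genes that have a ratio in red and the 2-fold call as dashed lines. Nkg7 (2.59) and Gzma (a bound of 2.57) lie above the call and the other 7 between -0.45 and 0.59.

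Among the 9 genes the median log2 fold change was 0.37, with 5 above 0 and 4 below, against a median of 0.03 over all genes with a ratio. Over the 12 probe sets it was -0.20, against 0.01 over all probe sets, so that the median changed sign with the unit counted. Without the floor, all 10 genes had a ratio and the median was 0.15. After loess, quantile or median scaling, each of the 9 genes kept its sign. The log2 fold change of Nkg7 ran from 2.59 to 2.65 over the 10 settings tried, and that of Gzma from 1.69, with the floor at the 70th percentile, to 4.30 with no floor, over the 9 settings that gave it a value. Gzma could not be read when probe sets with the suffixes _x_at, _s_at and _a_at were left out. Such probe sets may match several transcripts, and 1417898_a_at is of that kind.

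**Figure D3:**
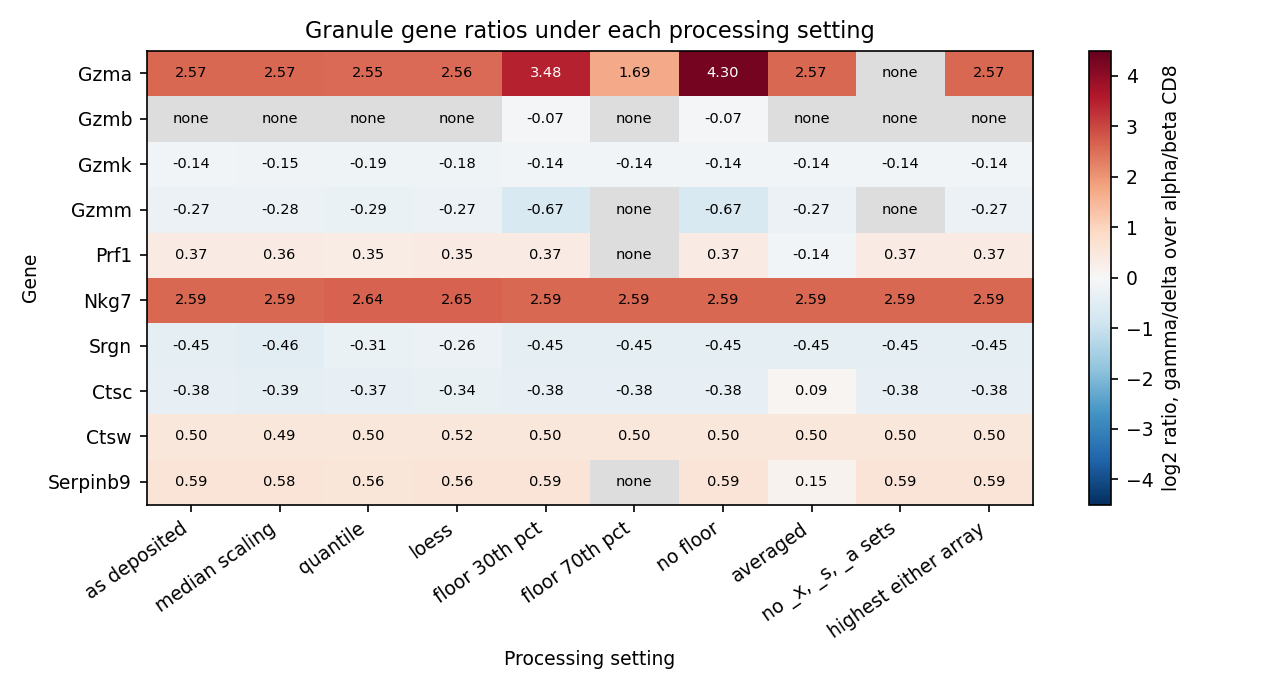
log2 fold change of gamma/delta to CD8+ alpha/beta (colour and printed value) for each granule gene (rows) under each processing setting (columns), with grey for no ratio. Nkg7 stays between 2.59 and 2.65 and Gzma at or above 1.69, and Ctsc and Prf1 change sign when probe sets are averaged, to 0.09 and -0.14.

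A set of 5 lists of related genes was put beside the granule genes, 83 measured genes in all, of which 63 had a ratio. Of these, 10 (15.9%) were called higher in gamma/delta T cells and 2 lower, against 5.82% and 3.93% of all genes. Through 1 array only, 14 of the 63 had a ratio, among them Was, Gfi1, Bhlhe40 and Nfil3, which were called higher. Above the floor were 60 genes in gamma/delta and 52 in CD8+ alpha/beta T cells. A gene expressed in 1 of the cell types thus entered these counts more easily than one expressed in neither. The other granule proteins had 2 of 11 genes with a ratio called higher and 0 lower, with a median log2 fold change of 0.50. Cst7, which encodes cystatin F, an inhibitor of cathepsins including cathepsin C in cytotoxic cells, had signals of 2901 in gamma/delta and 342.1 in CD8+ alpha/beta T cells and was 8.48-fold higher in gamma/delta T cells. That ratio was larger than the 6.04-fold of Nkg7, while Gzma has only a bound of 5.93-fold and Ctsc itself had a log2 fold change of -0.38. Ctsa, a lysosomal carboxypeptidase, had 822.0 in gamma/delta and 341.3 in CD8+ alpha/beta T cells (log2 fold change 1.27), but its other probe set gave -0.18, and the value fell below the call under a 70th percentile floor (0.88) or when probe sets were averaged (0.40). Gusb, a lysosomal glucuronidase, had 640.0 and 325.7 (log2 fold change 0.97), just under the call. Lamp2, a lysosomal membrane protein, had a log2 fold change of 0.60, with its 4 probe sets from -0.63 to 0.60.

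Of the 19 genes for granule docking and release with a ratio, 3 were called higher in gamma/delta T cells and 2 lower. The shares of all genes were 5.82% and 3.93%, and the list's median log2 fold change was 0.27. Rab27a, the small GTPase that docks granules at the plasma membrane, had signals of 1637 in gamma/delta and 590.6 in CD8+ alpha/beta T cells, 2.77-fold higher in gamma/delta T cells. Its other 3 probe sets lay below the floor on both arrays, and with probe sets averaged the gene did too. Was, the actin regulator deficient in human Wiskott-Aldrich syndrome, had 595.7 in gamma/delta T cells and 229.7 in CD8+ alpha/beta T cells, below the floor there, and was at least 2.45-fold higher in gamma/delta T cells, with a log2 bound of 0.41 when the floor was at the 70th percentile. The remaining calls were split between probe sets of the gene. Ap3b1, a subunit of an adaptor complex that sorts proteins to lysosome-related granules, had a log2 fold change of 1.01 (0.99 after quantile normalization) and another probe set at -0.46. Lyst, a regulator of granule size, had -1.21 and another at 0.67. Rab11a, a GTPase of recycling endosomes, had -1.09 and another at 0.99, so no direction can be given for these 3 genes.

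Of 18 regulators of cytotoxic genes with a ratio, 4 were called higher in gamma/delta T cells and 0 lower. The shares of all genes were 5.82% and 3.93%, and the list's median log2 fold change was 0.18. Above 0 were 11 of these genes and below 0 were 7. Irf4 (-0.93), Stat5b (-0.91), Notch1 (-0.82) and Prdm1 (-0.72) were short of the call for lower, with signals above the floor on both arrays. Gfi1, a transcriptional repressor, had signals of 573.4 in gamma/delta and 135.3 in CD8+ alpha/beta T cells, at least 2.36-fold higher in gamma/delta T cells. Bhlhe40, a basic helix-loop-helix repressor, had 513.5 and 45.8, and Nfil3, a bZIP factor needed for NK cell development, had 501.0 and 22.3, with bounds of 2.11-fold and 2.06-fold. These 3 calls were bounds that fell below the call with the floor at the 70th percentile, with log2 bounds of 0.36, 0.20 and 0.16. Runx3, a factor of the CD8 T cell lineage, had 1039 in gamma/delta and 501.1 in CD8+ alpha/beta T cells (2.07-fold higher in gamma/delta T cells), and had no ratio when probe sets were averaged. Of the T-box factors of the cytotoxic programme, Tbx21 lay below the floor on both arrays, at 15.7 in gamma/delta and 18.2 in CD8+ alpha/beta T cells, and Eomes had log2 fold changes of 0.33 and -0.03 over its 2 probe sets.

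Of 9 death ligands and secreted effectors with a ratio, 1 was called higher in gamma/delta T cells and 0 lower. The shares of all genes were 5.82% and 3.93%, and the list's median log2 fold change was 0.44. The gene called was Tnfsf10, which encodes the death ligand TRAIL, with signals of 1284 in gamma/delta and 457.4 in CD8+ alpha/beta T cells (2.81-fold). Its 3 probe sets had log2 fold changes from 0.09 to 1.49. Ifng, the cytokine interferon gamma, had 353.4 in gamma/delta T cells and 5.28 in CD8+ alpha/beta T cells, below the floor, which left a bound of 0.54 on the log2 scale. Ltb, a lymphotoxin subunit, had a log2 fold change of 0.70 and the chemokine Ccl3 one of -0.83. The death ligand Fasl lay below the floor on both arrays, at 192.7 in gamma/delta and 212.0 in CD8+ alpha/beta T cells.

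Of 6 serpins with a ratio, 0 were called in either direction, against 5.82% higher and 3.93% lower over all genes. The list's median log2 fold change was -0.10. Serpinb1a, an inhibitor of neutrophil-type serine proteases, had 466.6 in gamma/delta and 184.4 in CD8+ alpha/beta T cells, a bound of 0.94. Serpinb9c and Serpinb9d, relatives of Serpinb9, had bounds of -0.98 and -0.61, and Serpini1, a serpin best known from neurons, had a log2 fold change of -0.22.

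**Figure D4:**
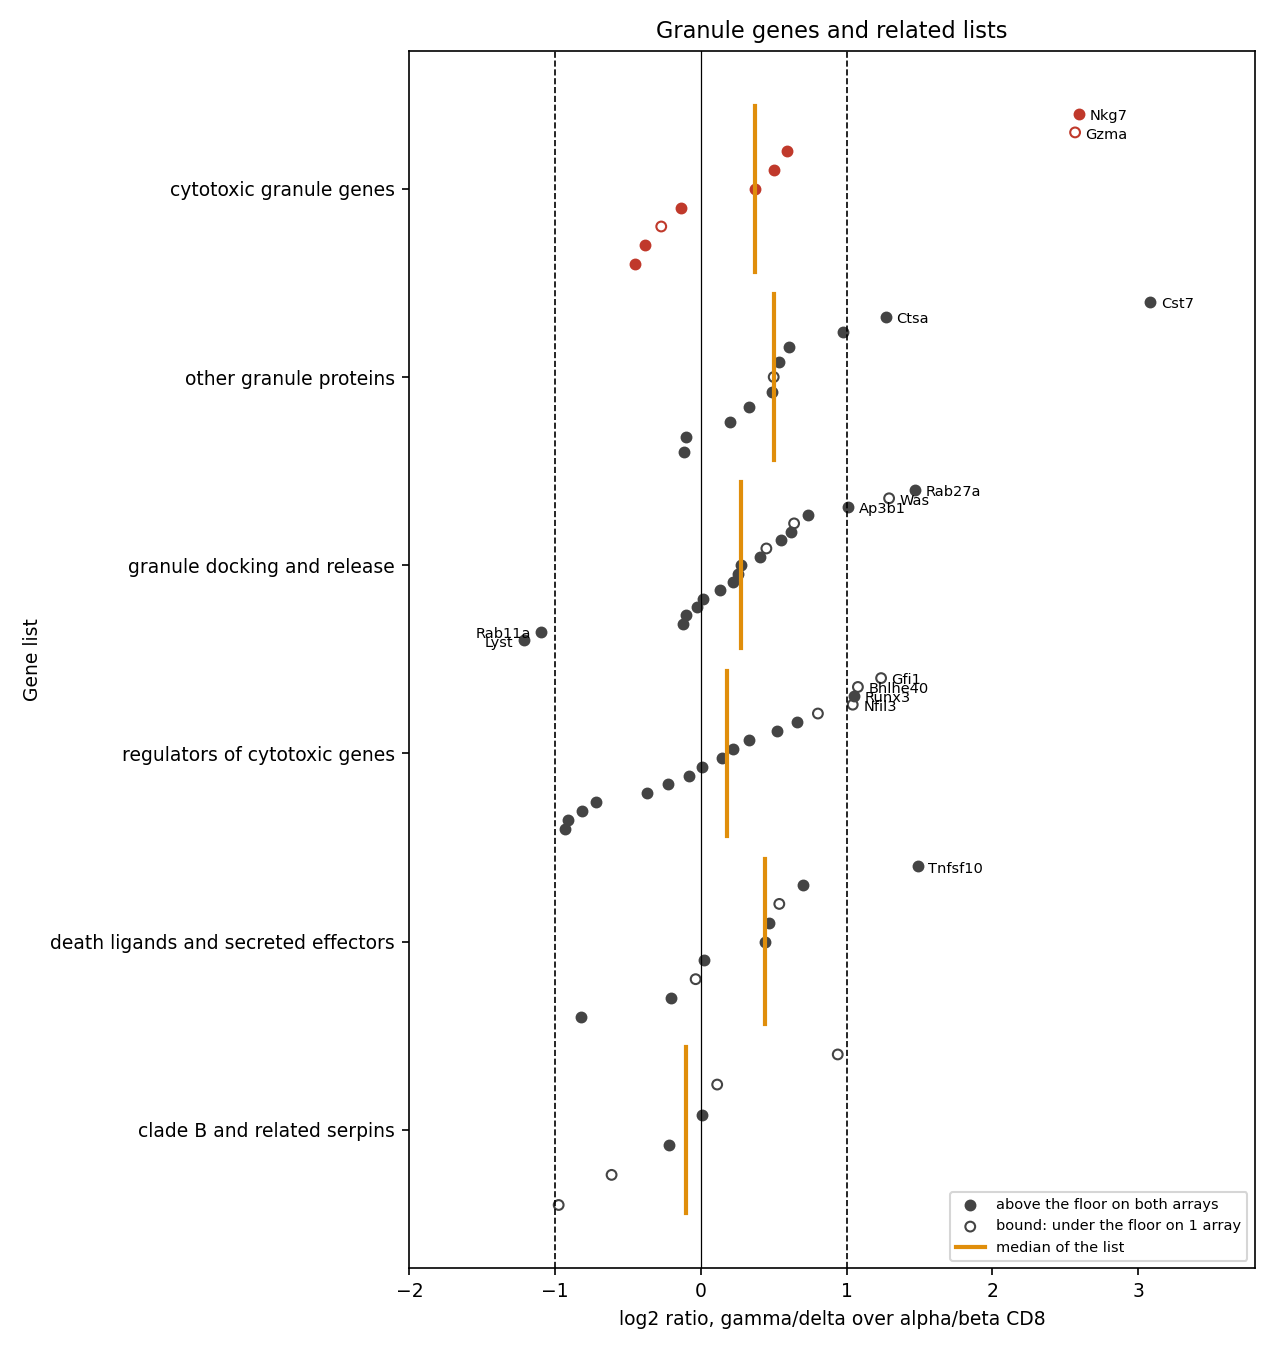
log2 fold change of gamma/delta to CD8+ alpha/beta for each gene with a ratio in the granule genes (red) and the 5 related lists (grey), with open circles for bounds, orange bars for the median of each list and dashed lines at the 2-fold call. Cst7 lies farthest to the right, at 3.08, ahead of Nkg7 (2.59) and Gzma (a bound of 2.57).

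Markers of other cells that carry granule transcripts are given beside these values. Over all genes with a ratio, 5.82% were called higher in gamma/delta T cells and 3.93% lower. Of 10 NK cell markers measured, 4 had a ratio, 0 were called higher in gamma/delta T cells and 1 was called lower, and their summed signal was 4291 in gamma/delta and 9293 in CD8+ alpha/beta T cells. The defining NK genes Ncr1 (6.76 in gamma/delta and 154.9 in CD8+ alpha/beta T cells) and Tyrobp (30.3 and 25.5) lay below the floor on both arrays. Cd244a, with signals of 1475 in gamma/delta and 1216 in CD8+ alpha/beta T cells, and Il2rb, with 683.4 and 446.5, were above it on both and had log2 fold changes of 0.28 and 0.61, the direction of Gzma and Nkg7. Another probe set of each lay below the floor on both arrays. Fcer1g went the opposite way, with 174.3 in gamma/delta T cells, below the floor, and 379.9 in CD8+ alpha/beta T cells (a log2 bound of -0.64). Klrd1, which encodes the NK receptor chain CD94 and is also expressed by CD8 T cells, had 1532 in gamma/delta and 6623 in CD8+ alpha/beta T cells, 4.32-fold lower in gamma/delta T cells. It made up most of the summed NK signal in CD8+ alpha/beta T cells, and its direction was opposite to that of Gzma and Nkg7. Of 8 markers of memory-like CD8 T cells, 5 had a ratio and 0 were called, and the summed signal was 2935 in gamma/delta and 2679 in CD8+ alpha/beta T cells. Of these 5, 4 had a log2 fold change above 0 (Il2rb 0.61, Klrg1 0.54, Eomes 0.33 and Cd44 0.32) and 1 below (Ccl5 -0.20). Other probe sets of Eomes and Cd44 went the opposite way. Of 8 mast cell and basophil markers 3 had a ratio and 0 were called (summed signal 1595 in gamma/delta and 1792 in CD8+ alpha/beta T cells), and Cpa3 lay below the floor in gamma/delta T cells (217.0) and just above it in CD8+ alpha/beta T cells (244.2). Mcpt8 was above it on both arrays, at 395.1 in gamma/delta and 575.8 in CD8+ alpha/beta T cells (log2 fold change -0.54). The sums were 1343 in gamma/delta and 997.0 in CD8+ alpha/beta T cells over 8 myeloid and dendritic markers, of which 2 had a ratio. Lyz2 lay below the floor on both arrays and Fcgr3 above it on both, at 381.0 in gamma/delta and 349.4 in CD8+ alpha/beta T cells. The summed signals were 708.1 in gamma/delta and 644.9 in CD8+ alpha/beta T cells over 5 platelet markers, of which 1 had a ratio and Pf4 lay below the floor on both, and 5125 and 4096 over 7 B cell markers, of which 4 had a ratio and Cd79a lay below it on both. The 4 B cell genes with a ratio, Blnk, Ms4a1, Ebf1 and Cd79b, all had higher signals in gamma/delta T cells, with log2 fold changes from 0.06 (a bound for Cd79b) to 0.51 and none called, and Ebf1 had signals of 3331 in gamma/delta and 2649.5 in CD8+ alpha/beta T cells with the probe set used. In the list of CD4 and regulatory T cells 1 of 5 had a ratio, neither Cd4 nor Foxp3 exceeded the floor on any array, and the sums were 831.1 and 1209. The part of other cells in the signals of the granule genes was not tested.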

How the data were processed

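RNA from 1 preparation each of gamma/delta and CD8+ alpha/beta T cells was hybridised to 2 Affymetrix MOE430 2.0 arrays. For each array the deposited table gives an intensity for every probe set, which the authors made with MAS5 (Affymetrix Expression Console 1.0), as the submitters' processing notes record. The trimmed mean (2% off each end) was 500.003 on both arrays, so values were used as deposited. MAS5 spreads weak signals widely, and detection calls were not used here. No read depth applies, and precision is limited by the number of arrays.

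Gene names came from the platform annotation, and 64 control probe sets were left out. Each gene was read from the probe set whose mean log2 intensity was highest. Signals were floored at 243.3 and called at 2-fold, with python 3.11.15, numpy 2.4.6, pandas 2.3.3, scipy 1.17.1 and statsmodels 0.14.6. With 1 array per cell type no statistical test was possible. The granule genes, lists, motifs and settings were chosen with earlier results of these data known. Named genes were all 10 granule genes, up to 4 genes per related list with the largest ratio, genes that check the labels, markers called at 2-fold and defining markers. Ap3b1, Tbx21, Eomes, Fasl, Irf4, Stat5b, Notch1 and Prdm1 were added after their values were seen. So were further markers above the floor and the genes next to Gzma and Gzmb. List members without a probe set of 1 symbol, such as Trdc, were not analysed here. The alternatives were 3 scalings, 3 floors and 3 choices of probe set.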

Additional observations from a re-analysis of the deposited data

How the results depend on the processing

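The count of granule genes called higher in gamma/delta cells was 2 in all settings except when probe sets with the suffixes _x_at, _s_at and _a_at were left out, where it was 1 because Gzma had no value, and 0 were called lower in any of the 10 settings. The number of granule genes with a ratio changed, to 6 with the floor at the 70th percentile, 7 without the 3 suffixes and 10 with no floor. The shares of all genes called higher there were 5.2%, 5.33% and 16%. Of the granule gene probe sets, 3 were called higher with no floor, against 2. The added one was 1437939_s_at of Ctsc, with signals of 83.1 in gamma/delta and 40.7 in CD8+ alpha/beta T cells, below the floor of 243.3 on both arrays. The share of all probe sets called with no floor was not computed. The counts of related genes moved with the floor on weak signals. Of these, 5 were called higher and 1 lower with the floor at the 70th percentile (a signal of 447.2), 21 higher and 8 lower with no floor, and 15 higher and 4 lower with the floor at the 30th percentile (129.6), against 10 and 2 of 63 with a ratio. Over all genes with a ratio the shares called moved too, to 5.2% higher and 3.73% lower with the 70th percentile floor, 16% and 14.3% with no floor, and 8.56% and 6.54% with the 30th percentile floor, against 5.82% and 3.93%. With probe sets averaged 7 related genes were called higher and 0 lower, where 4.8% and 3.37% of all genes were. Without the 3 suffixes 10 were higher and 1 lower, where 5.33% and 4.09% of all genes were. The lower count fell there because the log2 fold change of Rab11a turned to 0.99. Marker genes called higher numbered 13 with no floor and 2 without the 3 suffixes, against 5, and those called lower 11 with no floor, against 3, where 16% of all genes were called higher and 14.3% lower with no floor. With the floor at the 70th percentile Gzmm, Prf1 and Serpinb9 lay below it on both arrays. Of 683 alternative log2 fold changes of single probe sets and genes, 642 stayed called in the same direction, or stayed uncalled and moved by less than the spread between probe sets. Ratios lost under a setting were not among the 683, and granule genes entered both as probe sets and as genes. Many values could not change, since a lower floor leaves a ratio of signals above it as it was. The count is therefore not a measure of robustness.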

Other observations

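A probe set that the annotation shares among 4 relatives of Serpinb9 (Serpinb9e, Serpinb9f, Serpinb9g and Serpinb9h) had signals of 239.6 in gamma/delta and 409.0 in CD8+ alpha/beta cells, and 1 shared by Gzmd and Gzme had 72.7 and 3.04, below the floor in both. They name no single gene and entered no count.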
